A study of Mus musculus with 12 samples.

Results

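Acetylation of histone H3 at lysine 14 (H3K14ac) in differentiating mouse neural stem and progenitor cells was compared with the background of the same stage. The 5 libraries were chosen by their labels from the 12 of the series: 3 wild-type (WT) ChIP libraries of differentiating cells, 1 input library of WT differentiating cells, and 1 IgG library of differentiating cells, for which no genotype is labelled. Input is chromatin sequenced without immunoprecipitation, and IgG is an antibody that recognises no histone mark. The cells were taken from the cortex and ganglionic eminences of E14.5 embryos, expanded as neurospheres, then dissociated and differentiated on laminin in cortical neuron medium. The series' description names 4 WT foetuses, but no label ties a library to an animal or a culture. The labels of input and WT library 1 carry the same replicate number, 1, and no more is said of what they share. So the p-values reflect library-to-library spread alone, part of which may be technical. The antibody field of the input and IgG samples names the H3K14ac antibody as well. Their titles were followed here. Reads of 27095 genes had been counted in 2 ways: in a window of 1 kb from the transcription start (TSS window; its placement inside the gene was inferred from its name and from equal counts in short genes), and across the entire gene including that window (gene body). All 27095 windows were used for sums, and 22557 of them, whose counts averaged at least 10 in the 5 libraries, for statements on single genes.

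Histone acetylation loosens the packing of nucleosomes and is read by proteins with bromodomains. H3K14ac is deposited by several enzymes, among them HBO1 (gene Kat7) with its BRPF partners and the GCN5/PCAF family, and it is known from the promoters of active and poised genes. Many promoters of broadly expressed and developmental genes lie in CpG islands, stretches of DNA rich in unmethylated CpG, whereas promoters of receptors used in few cells usually hold little CpG. In a ChIP of a cell population, fewer cells that carry the mark and less mark per cell cannot be told apart.

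The sequences below are the 250 bases before the RefSeq start (GRCm38.p6), written 5′ to 3′ along the gene, with each CpG in capitals. The opening 4 belong to genes whose TSS windows stood above both backgrounds in all 3 WT libraries, and the other 2 to genes whose windows stood below both. They are shown for their CpG content, by which gene starts were also grouped (given after the gene lists). The 4 were the first in the order of naming with a single RefSeq promoter that starts within 1000 bases of the annotated gene end.
Cnot11 (chr1:39535451-39535700, plus strand): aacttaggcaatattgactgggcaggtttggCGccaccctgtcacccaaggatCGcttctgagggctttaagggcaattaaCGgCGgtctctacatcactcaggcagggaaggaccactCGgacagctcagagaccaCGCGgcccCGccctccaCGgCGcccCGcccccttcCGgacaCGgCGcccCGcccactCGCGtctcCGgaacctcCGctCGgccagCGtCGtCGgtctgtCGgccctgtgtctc
Kif21a (chr15:91049952-91050201, minus strand): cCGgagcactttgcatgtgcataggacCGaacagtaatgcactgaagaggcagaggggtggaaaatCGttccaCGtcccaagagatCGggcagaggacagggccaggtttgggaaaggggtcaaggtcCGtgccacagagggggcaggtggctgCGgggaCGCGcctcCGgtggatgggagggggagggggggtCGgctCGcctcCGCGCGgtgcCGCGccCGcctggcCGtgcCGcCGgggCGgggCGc
Tns3 (chr11:8664536-8664785, minus strand): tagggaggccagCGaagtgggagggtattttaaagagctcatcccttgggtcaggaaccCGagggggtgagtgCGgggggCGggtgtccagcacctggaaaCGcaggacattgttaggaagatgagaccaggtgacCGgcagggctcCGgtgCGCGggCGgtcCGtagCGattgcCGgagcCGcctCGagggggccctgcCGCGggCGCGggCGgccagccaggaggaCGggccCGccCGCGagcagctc
Zfand5 (chr19:21272028-21272277, plus strand): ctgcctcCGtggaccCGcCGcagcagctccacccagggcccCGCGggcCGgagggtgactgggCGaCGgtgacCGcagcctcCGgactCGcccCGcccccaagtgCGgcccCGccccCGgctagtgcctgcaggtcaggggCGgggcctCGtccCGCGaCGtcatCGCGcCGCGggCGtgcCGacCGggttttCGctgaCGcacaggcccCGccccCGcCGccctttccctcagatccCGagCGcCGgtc
Wdhd1 (chr14:47276858-47277107, minus strand): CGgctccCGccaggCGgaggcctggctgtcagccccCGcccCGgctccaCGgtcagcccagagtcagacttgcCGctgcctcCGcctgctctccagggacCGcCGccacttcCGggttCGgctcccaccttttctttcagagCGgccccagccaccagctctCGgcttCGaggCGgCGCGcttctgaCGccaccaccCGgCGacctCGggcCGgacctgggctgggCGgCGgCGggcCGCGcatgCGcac
Mrgpra4 (chr7:47982297-47982546, minus strand): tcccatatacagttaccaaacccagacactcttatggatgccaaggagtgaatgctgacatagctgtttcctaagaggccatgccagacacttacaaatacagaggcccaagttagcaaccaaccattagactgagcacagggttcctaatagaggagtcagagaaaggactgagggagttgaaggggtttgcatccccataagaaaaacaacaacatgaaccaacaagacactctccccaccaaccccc
The printed stretches hold 24, 23, 24 and 35 CpG in Cnot11, Kif21a, Tns3 and Zfand5. Wdhd1, whose window was below both backgrounds, holds 29, and Mrgpra4 holds 0. A CpG-rich promoter was thus found on either side.

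The libraries differed in depth and in sex chromosome content. WT libraries 1 to 3 held 12549913, 12782070 and 17074249 gene body counts, input 12689734 and IgG 2771713. A TSS window held a median of 16, 14 and 19 counts in the WT libraries, 14 in input and 2 in IgG, and 3257 windows held 0 counts in IgG. A count of 0 in IgG has a floor of 3 counts, which is 1.08 CPM (counts per 1000000 gene body counts, the unit used throughout). Its exact two-sided 95% Poisson bound, used below for separation, is 1.33 CPM. Intervals and floors cover counting error only. The Y chromosome windows held 60.5 CPM in WT library 3 and 58.8 in IgG, but 0.956, 1.64 and 0.867 in WT libraries 1 and 2 and input. X windows were lower in the same libraries, at 675 and 576 CPM against 1158, 1097 and 1291. WT library 3 and IgG thus held Y chromosome DNA that the other libraries nearly lacked. Comparisons on X and Y follow that split, and sums of lists were also taken over autosomal members alone.

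Counts were only slightly more concentrated at gene starts in the ChIP than in the controls. TSS windows held 3.68%, 3.24% and 3.43% of gene body counts in the WT libraries, 3.23% in input and 2.90% in IgG. The lowest WT library and input lay side by side. The WT mean was 3.45% ± 0.220 (SD, n = 3) against 3.06% for the 2 controls, a difference of 0.385 percentage points. The exact two-sided permutation test over libraries gave p = 0.2, which is the smallest p that 3 against 2 allows.

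Which single gene starts stood above both backgrounds was asked in 2 ways. The edgeR quasi-likelihood test of the 3 WT libraries against the 2 controls, scaled by gene body totals, called none of 22557 windows higher (0%) and none lower (0%) at an adjusted p of 0.05. At an unadjusted p under 0.05 there were 1722 higher and 432 lower windows, and the smallest adjusted p was 0.159. DESeq2 with the same scaling also called 0, with 482 windows at an unadjusted p under 0.05. The median log2 difference over all windows tested was 0.14, and TMM scaling moved it to 0.01, so the height of single windows is relative to a scale that is uncertain by about that much.

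The 5 windows with the smallest p in that test, among symbols that are not predicted, clone or microRNA names, did not pass. They were high in every WT library. A window without a RefSeq match had a smaller p than these 5 and is not described. Chaserr, a long noncoding RNA gene beside the remodeler gene Chd2 (chromosome 7, 73539798 to 73558395), held 66, 30 and 62 counts in the WT libraries, 11 in input and 2 in IgG. Its 5.26, 2.35 and 3.63 CPM compare with 0.867 in input and 0.722 in IgG, a fitted log2 difference of 2.15 (SE 0.47, edgeR adjusted p = 0.159). All 3 WT libraries lay above both controls, and library 2 was the lowest. Qk, which encodes an RNA-binding protein of glia, held 38, 17 and 55 counts against 6 and 1 (log2 2.48, SE 0.55), and library 2 was again the lowest. Smap1, an ARF GTPase-activating protein gene, held 19, 25 and 30 against 4 and 1. Maml1, a coactivator of Notch, held 29, 32 and 30 against 6 and 1. Zmynd11, a reader of methylated histone H3.3, held 43, 30 and 47 against 7 and 3. In all 5 windows each WT value was above both controls in CPM. In each, however, the lowest WT value lay under the upper exact Poisson bound of IgG. These were 2.35 against 2.61 CPM in Chaserr, 1.33 against 2.01 in Qk and 1.51 against 2.01 in Smap1. In Maml1 they were 1.76 against 2.01, and in Zmynd11 2.35 against 3.16. Counting error thus did not separate these windows from IgG. All 5 windows had the same adjusted p of 0.159.

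The second way asked for separation beyond counting error. A window was taken as clear above a background when each of the 3 WT values exceeded the upper bound of the 95% exact Poisson interval of that control. Against both controls 61 of 22557 windows were clear above (0.27%) and 17 clear below (0.0754%). Against input alone 880 were clear above (3.9%) and 468 below (2.07%), and against IgG alone 244 above (1.08%) and 155 below (0.687%). Without regard to counting error, each WT value lay above both controls in 4811 windows (21.3%) and below both in 1683 (7.46%). More windows were above than below under these rules with gene body scaling, but TMM scaling turned the order, with 26 clear above both and 28 below. With a 99% interval 6 were clear above and 2 below. Leaving out WT library 1, 2 or 3 in turn gave 77, 176 and 114, as fewer libraries then had to clear the bounds. With a mean count of at least 30 there were 0 above and 3 below.

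IgG held few counts in the 61 windows. It held 0 counts in 49, 1 in 11 and 2 in 1, whereas 48.8% of all tested windows held 0 to 2 IgG counts. The choice of windows fixes these low IgG counts, and they are no support for the signal. The 61 windows held 5 to 19 counts in input (median 10), with medians of 27, 24 and 32 in the WT libraries. Their summed windows stood at 2.69, 2.30 and 2.31 times input, again as the rule requires. The rest of the same gene bodies, which the rule did not use, stood at 0.975, 0.953 and 0.982 times input and at 1.00, 0.980 and 1.01 times IgG. Windows picked for high counts at the start would differ from the rest of the gene in this way by the choice alone. The set comprised 55 protein-coding genes, 4 long noncoding RNA genes and 2 without a RefSeq match, on 19 chromosomes. None of them lay on X, where 618 windows were tested, or on Y, where 3 were, and none was called by edgeR against input or IgG alone.

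Of the 61, 18 had a mean WT count of at least 30 and a gene symbol that is not a predicted or clone name. Of these, 17 are described here by role, with counts of the 3 WT libraries, input and IgG. Values are descriptions, since the same counts chose the windows, and adjusted p-values of the edgeR test against both controls ran from 0.219 to 0.421 among them.

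The grouping by role is for order only and was not tested. Genes of chromatin and the nucleolus come before the others here. Ubtf, a factor that shapes ribosomal DNA for RNA polymerase I (chromosome 11, 102304560 to 102323649), held 48, 37 and 37 counts in the WT windows, 14 in input and 1 in IgG. That is 3.82, 2.89 and 2.17 CPM against 1.10 in input, 2.68 times on average (counting interval of the input 1.60 to 4.91). The ratio to IgG was 8.21, with a counting interval from 1.47 to 324 that shows how little 1 count fixes. Atxn7, a subunit of the SAGA acetyltransferase complex, held 42, 23 and 39 counts against 13 and 0. Bcl7b, a subunit of the BAF remodeling complex, held 30, 24 and 37 against 13 and 0. Asf1a, a chaperone of histones H3 and H4, held 33, 34 and 46 against 19 and 2, at 2.63, 2.66 and 2.69 CPM. Its WT libraries were nearly equal, and it lay just inside the rule, since the IgG interval reached 2.61 CPM.

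Genes of RNA metabolism were also present. Hnrnpu, a nuclear RNA-binding protein gene (chromosome 1, 178321108 to 178338891), held 43, 29 and 40 counts against 14 in input and 1 in IgG, 2.43 times input (1.45 to 4.44). Zfp36l2, whose product promotes decay of AU-rich mRNA, held 39, 28 and 52 against 12 and 1, 2.94 times input (1.68 to 5.69). Cnot11, a subunit of the CCR4-NOT deadenylase (promoter shown above), held 30, 38 and 37 against 13 and 0. In these 3 genes each WT value was above each control value.

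Boc, a co-receptor for Sonic hedgehog and a gene of neural development, held 32, 33 and 35 counts in the WT libraries against 13 in input and 1 in IgG. Its counts were close to each other across the 3 libraries.

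The other named windows belong to genes of the cytoskeleton, the secretory pathway and protein turnover. Kif21a (a kinesin; promoter shown above) held 36, 29 and 35 counts against 12 and 0, Septin7 (a septin) 41, 29 and 40 against 16 and 1, and Tns3 (a focal adhesion tensin; promoter shown above) 33, 31 and 35 against 14 and 0. Golph3, of the Golgi, held 33, 24 and 35 against 12 and 0, Selenof, a selenoprotein of the endoplasmic reticulum, 27, 27 and 40 against 9 and 1, and Tm9sf1 32, 31 and 39 against 14 and 1. Zfand5, which links ubiquitin to the proteasome (promoter shown above), held 44, 35 and 48 against 18 and 0. Across these 7 the mean WT window ran from 2.08 to 3.10 times input. The remaining 2 were Nhlrc2 (42, 33 and 44 against 15 and 1) and Fam221a (28, 26 and 36 against 15 and 1).

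**Figure D1:**
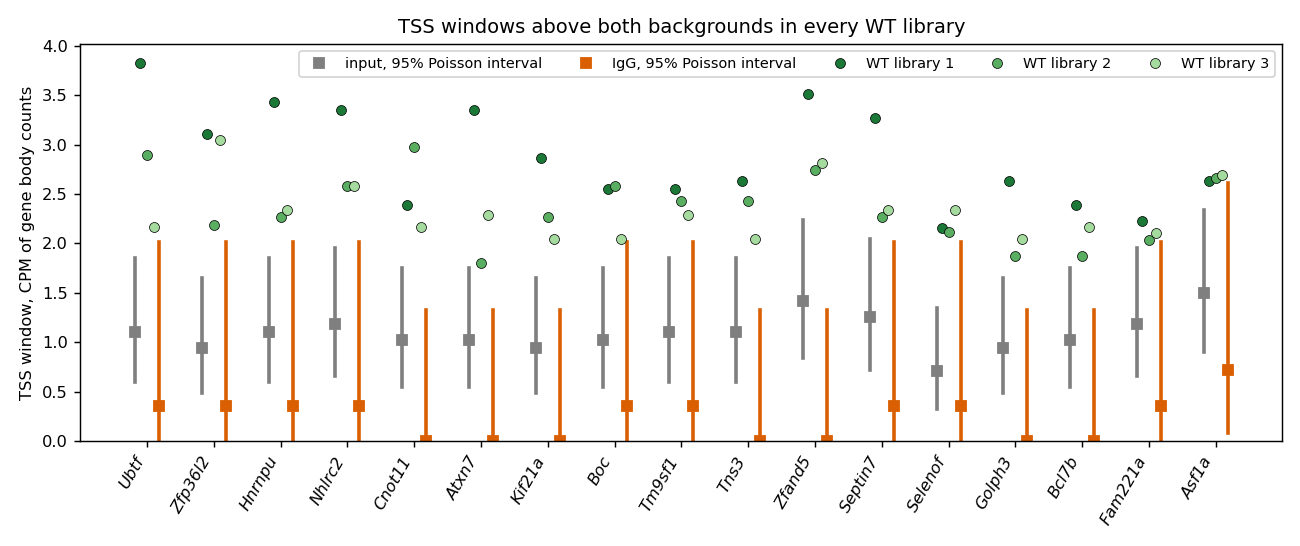
TSS windows of the 17 described genes, in CPM of gene body counts (vertical axis). Green points are the 3 WT libraries, grey and orange squares input and IgG with 95% exact Poisson intervals. Every WT point lies above both intervals, as the choice requires, and the narrowest margin is that of Asf1a, whose IgG interval ends at 2.61 CPM under WT values of 2.63 to 2.69.

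Below both backgrounds stood 17 windows with gene body scaling and 28 with TMM scaling. Wdhd1, a replication fork protein gene (promoter shown above), held 9, 9 and 8 counts in the WT libraries against 21 in input and 6 in IgG, or 0.717, 0.704 and 0.469 CPM against 1.65 and 2.16. Mrgpra4, a receptor gene of sensory neurons (promoter shown above), held 11, 14 and 19 against 30 and 9. Pign (glycolipid anchor synthesis) held 9, 9 and 13 against 21 and 6, the olfactory receptor gene Olfr631 12, 13 and 14 against 25 and 8, and the immunoglobulin segment Ighv1-69 7, 9 and 11 against 17 and 7. Of the 17 windows 8 were protein coding and 7 had no RefSeq match. The largest held 137, 121 and 167 WT counts, so these windows are not all shallow.

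Against input alone, edgeR called 44 of 24495 windows higher (0.18%) and 2 lower (0.00816%). Receptor genes were the most frequent kind named in the called set. Of the 44, 15 were chemosensory receptor genes, a kind that made up 1483 of the 24495 windows tested. On Y lay 3 (of 109 windows counted there) and on X 0 (of 1164). No RefSeq match was found for 8, among them the 2 windows with the smallest p. In 6 of the 44, the 3 Y windows and 3 unmatched ones, WT libraries 1 and 2 held at most 2 counts each. In Olfr913, an olfactory receptor gene, the WT libraries held 16, 22 and 25 counts, input 0 and IgG 5. Its WT values of 1.27, 1.72 and 1.46 CPM were above the input floor of 3 counts (0.236 CPM), but IgG stood at 1.80, above all 3 WT libraries. Vmn2r67, a vomeronasal receptor gene, held 17, 15 and 28 counts against 1 in input and 5 in IgG, and Olfr1134 19, 12 and 33 against 1 and 6. For these 3 genes IgG was above every WT library in CPM. Other called receptor windows went the other way. Vmn2r102 held 13, 23 and 21 counts against 1 in input and 1 in IgG, and Olfr181 14, 19 and 24 against 1 and 2. In both genes every WT library was above IgG in CPM.

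IgG was above every WT library in 11 of the 44. In 16 of them every WT value lay above IgG, in 0 did every WT value exceed the IgG interval's upper bound, and none was among the 61. The Y window Gm20738, chosen after its values were seen, held 0, 0 and 64 counts in the WT libraries, 0 in input and 9 in IgG, 3.75 CPM in WT library 3 and 3.25 in IgG. It follows the split of libraries by Y content. The count of 46 calls in either direction rested on single libraries and settings: 0 remained without WT library 1, 70 were made without library 2, 1 without library 3 (Olfr913), 3 with TMM scaling and 0 with DESeq2, which had 536 at an unadjusted p under 0.05.

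Among the 44 were genes other than receptors, some with IgG under every WT library and others with IgG near the WT level. Chaserr (fitted log2 over input 2.10, edgeR adjusted p = 0.0248) and Qk (2.42, adjusted p = 0.0234) were described above. Zmynd11 (2.34, adjusted p = 0.0216) and Smap1 (2.43, adjusted p = 0.0421) were called too. Cul1, the scaffold of SCF ubiquitin ligases, held 36, 21 and 29 counts against 4 in input but 5 in IgG. Its IgG value of 1.80 CPM was above WT libraries 2 and 3 (1.64 and 1.70) and under library 1 (2.87). Kat2b, which encodes the acetyltransferase PCAF, held 37, 22 and 33 against 5 and 6 (log2 2.44, adjusted p = 0.0293). In CPM Kat2b stood at 2.95, 1.72 and 1.93 in WT, 0.394 in input and 2.16 in IgG, so that it was high against input and level with IgG. Mttp, a gene of lipoprotein assembly in liver and gut, held 24, 13 and 28 against 2 and 4. In CPM its IgG value of 1.44 was above WT library 2 (1.02) and under libraries 1 and 3 (1.91 and 1.64). The 2 windows called below input were Plac1, a placental gene on X (11, 6 and 8 counts against 30 and 2), and Fbxl13 (5, 7 and 12 against 27 and 4).

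**Figure D2:**
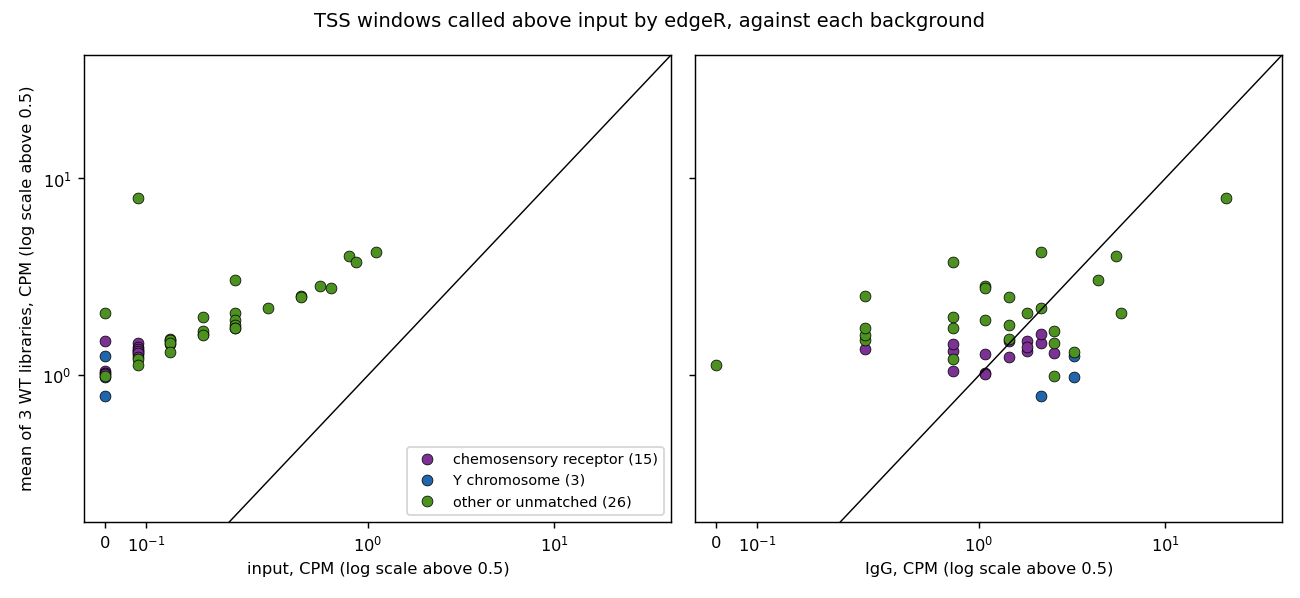
Mean WT CPM (vertical) of the 44 TSS windows called above input, against input CPM (left) and IgG CPM (right); axes are logarithmic above 0.5 CPM and the line marks equality. All 44 lie above the line for input, by the choice, while for IgG they scatter to both sides of it, with the 3 Y windows below it.

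Against IgG alone, edgeR called 0 of 21419 windows higher (0%) and 3 lower (0.014%), with 1905 higher and 260 lower at an unadjusted p under 0.05, and 0 by DESeq2 (753 at an unadjusted p under 0.05). The 3 lower windows were 1600014C10Rik (14, 8 and 23 WT counts, 18 in input, 20 in IgG), Eif4a3l1 (9, 14 and 12, 13 and 17) and Mrgpra3 (16, 7 and 20, 11 and 17). In all 3 input was level with WT, so these windows stood apart in the IgG library. The median log2 over IgG was 0.46, against 0.07 over input. With a mean count of at least 30, where 113 windows were tested, 11 were called higher and 9 lower.

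Single windows hold few counts, so windows were also summed over 27 gene lists, with all members and no filter. For each list the WT sums were set against the 95% exact Poisson interval of the control sums. In 9 of 27 lists all 3 WT libraries lay above both intervals. They were above the input interval in 10 lists and above the IgG interval in 13, below input in 3 and below IgG in 0. The sum over all 27095 windows itself lay above both intervals in all 3 WT libraries. Its lowest WT library held 32386.5 CPM against upper bounds of 32361.8 in input and 29198 in IgG. Lying above both is thus not particular to these lists. Over all 27095 windows the log2 of WT over input was 0.09 ± 0.09 (SD, n = 3) and over IgG 0.25, and list values are to be read against these.

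Neural stem and progenitor genes, the identity of the labelled cells, stood among the highest. Their 27 windows summed to 53.8, 39.7 and 45.2 CPM in the WT libraries, 29.1 in input (interval 26.2 to 32.2) and 21.3 in IgG (16.2 to 27.5). All WT libraries lay above both intervals, with log2 over input 0.66 ± 0.22 and over IgG 1.11 ± 0.22 (SD, n = 3). Each WT value was above both controls in 16 of the 27 windows, against the 21.3% of all windows, and below both in 1. Fabp7, Fgfr1, Notch2, Nr2e1 and Sox1 were clear above input and not clear of IgG. None of the 27 was called by edgeR against input or IgG. Fgfr1, a receptor for fibroblast growth factors, held 24, 23 and 25 counts against 6 in input and 1 in IgG. Sox2, the stem cell transcription factor gene, held 54, 18 and 52 against 17 and 4, so that library 2 was level with the controls in CPM (1.41 against 1.34 and 1.44). Vim, an intermediate filament gene, held 24, 25 and 12 against 5 and 3, with library 3 low. The members thus varied in which WT library was low.

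The 4 nuclear factor I genes, transcription factors of glial and late progenitor differentiation, summed to 8.21, 5.95 and 8.43 CPM against 3.31 in input (2.39 to 4.47) and 3.25 in IgG (1.48 to 6.16). They were above the input interval, and library 2 lay within the IgG interval. Nfib held 39, 22 and 49 counts against 8 in input and 4 in IgG, and Nfix 30, 25 and 43 against 12 and 2. Nfia held 22, 20 and 38 against 12 and 3. Nfic held 12, 9 and 14 against 10 and 0, a mean under 10 that kept it out of the tests. The Nfib window had an edgeR adjusted p of 0.0661 against input and did not pass.

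Lists of nuclear genes were also above both controls. The 26 splicing and RNA-binding windows summed to 57.5, 44.9 and 48.1 CPM against 28.8 in input and 28.5 in IgG, log2 0.79 ± 0.18 over input and 0.81 over IgG. Each WT value was above both controls in 18 of the 26, beside 21.3% of all tested windows. Of the 26, 8 (Celf1, Hnrnpc, Hnrnpk, Hnrnpr, Hnrnpu, Malat1, Rbm39 and Tra2a) were clear above input, beside 3.9% of all tested windows. Malat1, a nuclear noncoding RNA gene, held 42, 31 and 31 counts against 9 and 3, and Rbm39, a splicing coactivator, 45, 39 and 46 against 16 and 4. Chromatin remodelers summed to 40.1, 28.6 and 32.9 CPM against 21.4 and 20.6 (log2 0.65 over input, 0.70 over IgG). There Pbrm1, a subunit of the PBAF complex, held 23, 18 and 29 counts against 5 and 3, whereas Chd8 held 11, 8 and 13 against 22 and 3 and was clear below input. Histone methylation genes stood at log2 0.50 over input and 0.78 over IgG, and ubiquitin system genes at 0.69 and 0.92, with Zfand5 clear of both.

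HBO1 complex members and other histone acetyltransferases, 18 genes, stood at log2 0.34 over input and 0.82 over IgG. Kat7, the gene of HBO1, held 12, 13 and 10 counts at its own start against 9 in input and 3 in IgG, a mean under 10 that kept it out of the tests. Brd1, an HBO1 partner, held 36, 28 and 33 counts against 15 and 1. Kat2b was the member clear above input. Members of the Wnt, Hedgehog, Notch and BMP pathways stood at log2 0.62 over input and 0.85 over IgG. In that list Apc, a component of the beta-catenin destruction complex, held 32, 23 and 46 counts against 8 and 5, with WT library 2 level with IgG in CPM. Fzd1, a Wnt receptor gene, held 28, 14 and 21 against 4 and 2, and the inhibitory SMAD gene Smad7 23, 23 and 34 against 11 and 0. Smad7 was clear of both backgrounds.

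Ribosomal protein and chemosensory receptor genes completed the 9 with smaller distances from input. The 85 ribosomal protein windows stood at log2 0.27 over input and 0.80 over IgG. The 1507 chemosensory windows stood at log2 0.067 over input and 0.120 over IgG, and the WT libraries differed by an SD of 0.005. Both values were below those of all windows, and scaling by window totals turned them to -0.03 and -0.13, so its place above the controls was lost under that scaling. Of its 1427 tested members 68 were clear above input and 31 below, beside 3.9% and 2.07% of all tested windows, and 5 were clear above IgG and 11 below, beside 1.08% and 0.687%. In the rest of their gene bodies, IgG stood at 1.59 times input and the WT libraries at 1.29, 1.39 and 1.47.

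Genes of neurons lay near background. Neuronal differentiation genes had a log2 over input of 0.16 and over IgG of 0.38, and synapse and ion channel genes 0.19 and 0.15. Neither list had all WT libraries above a control interval. Neurod1, a factor of neuronal differentiation, was clear below input (8, 12 and 18 counts against 22 in input and 5 in IgG). Astrocyte and oligodendrocyte lineage lists were above IgG in all WT libraries (log2 0.86 and 0.55) but not above input (0.40 and 0.28). Housekeeping genes stood at 1.01 over IgG and 0.20 over input. Cell cycle genes lay at -0.18 over input and 0.21 over IgG. With window totals as library sizes, the values over IgG turned to -0.10 for synapse and -0.04 for cell cycle genes. Whether lists differed from each other was not tested.

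Lists for other lineages, for other cells the dissection could hold and for imprinted genes lay near or under input. Chemosensory genes, described above, are not among them. Hox and other lineage factors of trunk, gut and mesoderm (44 windows) summed to 40.0, 37.9 and 34.4 CPM against 47.0 in input (43.3 to 50.9), all below its interval, and to 33.6 in IgG (27.1 to 41.1). Their log2 was -0.33 over input and 0.16 over IgG, the latter -0.09 with window totals as library sizes. Each WT value was above both controls in 0 of the 24 windows deep enough to be tested, beside 21.3% of all tested windows. Cdx2, Evx2 and Gata4 were clear below input, beside 2.07% of all tested windows. Myf5 was clear above IgG, beside 1.08%. Hoxa9, with a mean under 10 and not tested, held 5, 6 and 12 counts against 19 and 5. Liver genes (-0.19) and blood cell genes (-0.29) were also below the input interval in all 3 WT libraries, and neither was below IgG. Microglial (0.02), endothelial (0.06), mesenchymal and meningeal (0.13), muscle (-0.14), germline (-0.23) and imprinted (-0.06) genes had at least 1 WT library within the input interval. When only autosomal members were summed, neural stem genes still stood at 0.66 over input and ubiquitin genes at 0.78 in place of 0.69.

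**Figure D3:**
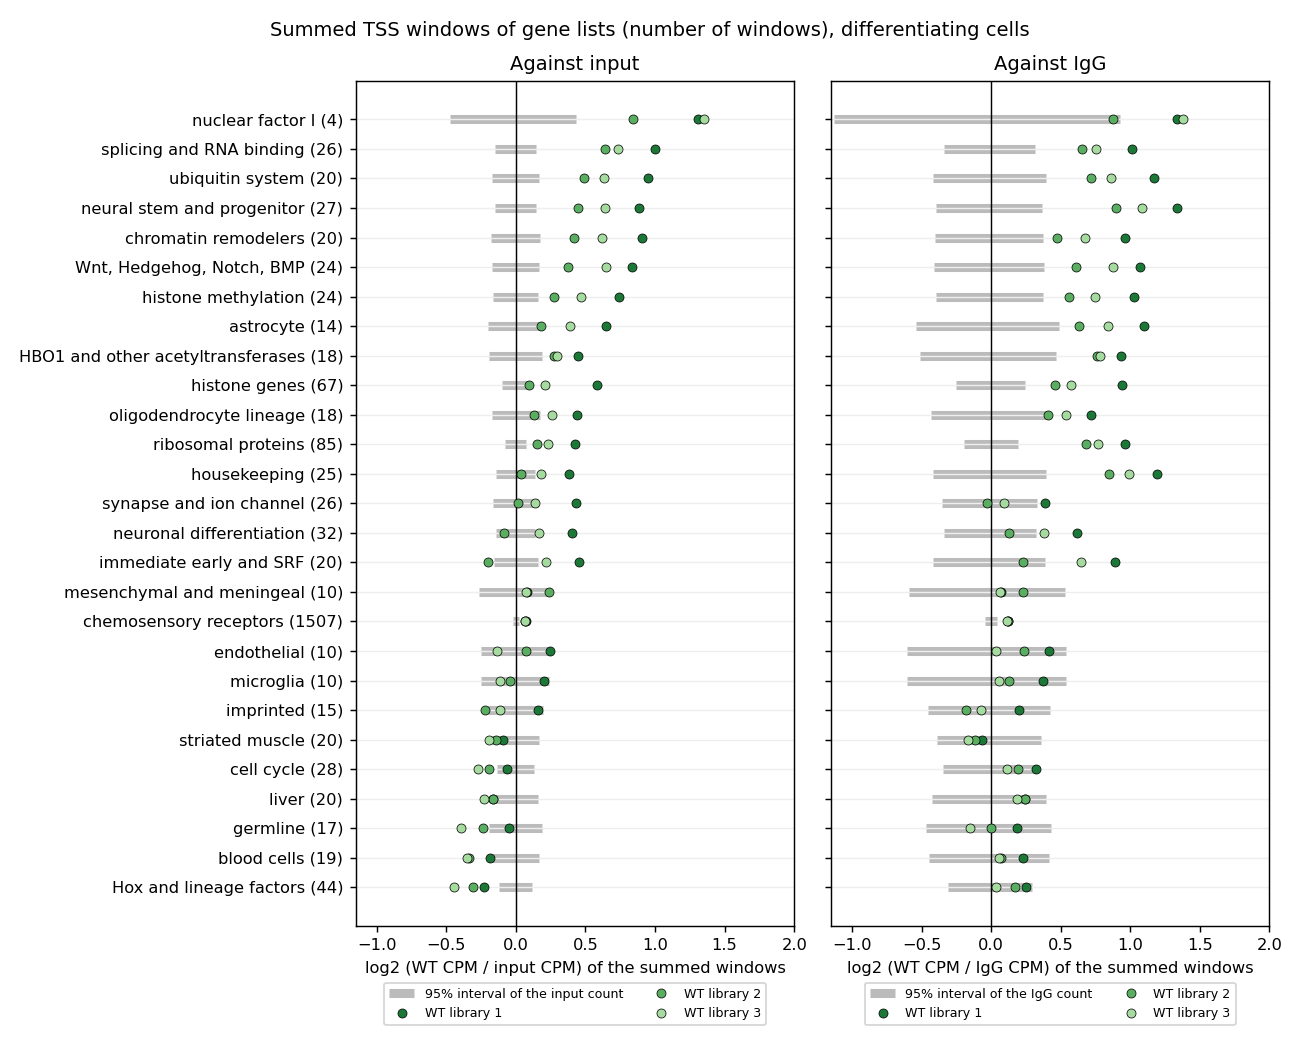
Log2 of WT over input (left) and over IgG (right) for the summed TSS windows of 27 gene lists, with the number of windows in brackets. Points are the 3 WT libraries and grey bars the 95% exact Poisson intervals of the control count. Splicing, ubiquitin and neural stem genes lie to the right of both bars in all libraries, Hox and lineage factors to the left of the input bar, and WT library 1 is often the highest point.

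Over input, windows of genes with CpG-rich promoters stood highest. RefSeq gave exactly 1 promoter (250 bases before to 50 after the start) for 15637 genes, which were split into 5 classes of about equal size by CpG count, a division made after the data had been seen. In 14253 of them (91.1%) the RefSeq start lay within 1000 bases of the annotated gene end. If the authors' window begins at the start, it overlaps the promoter stretch by its last bases only. In the class with 27 to 65 CpG, windows stood at 1.43, 1.08 and 1.19 times input in the WT libraries, and IgG at 0.833 times input. In the class with 0 to 2 CpG they stood at 1.03, 1.01 and 0.994 times input, and IgG at 0.909. In between, the values were 0.995, 0.921 and 0.893 (3 to 7 CpG), 1.17, 0.968 and 0.994 (8 to 17) and 1.26, 1.03 and 1.07 (18 to 26). All 3 WT libraries were above input in the 2 richest classes, and each was lowest in the class with 3 to 7 CpG, not in the poorest. WT library 1 showed the steepest increase and library 2 the shallowest.

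A ratio within each library needs no scaling between libraries. The mean window of the richest class over that of the poorest was 1.35, 1.04 and 1.17 in the WT libraries, 0.977 in input and 0.895 in IgG. Every WT library exceeded both controls, with a mean of 1.19 ± 0.155 (SD, n = 3) against 0.936. The exact two-sided permutation p was 0.2, again the smallest possible. The rest of the gene bodies ran the other way: the richest class stood at 0.964, 0.967 and 0.973 times input and at 0.971, 0.973 and 0.979 times IgG, and the poorest at 1.09, 1.12 and 1.11 times input and at 1.02, 1.04 and 1.03 times IgG. Over IgG the windows of the richest class stood at 1.71, 1.30 and 1.43 times, and those of the poorest at 1.14, 1.12 and 1.09. The values over autosomal windows alone were close to these (log2 over input 0.30 for the richest class and 0.04 for the poorest, against 0.29 and 0.02).

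**Figure D4:**
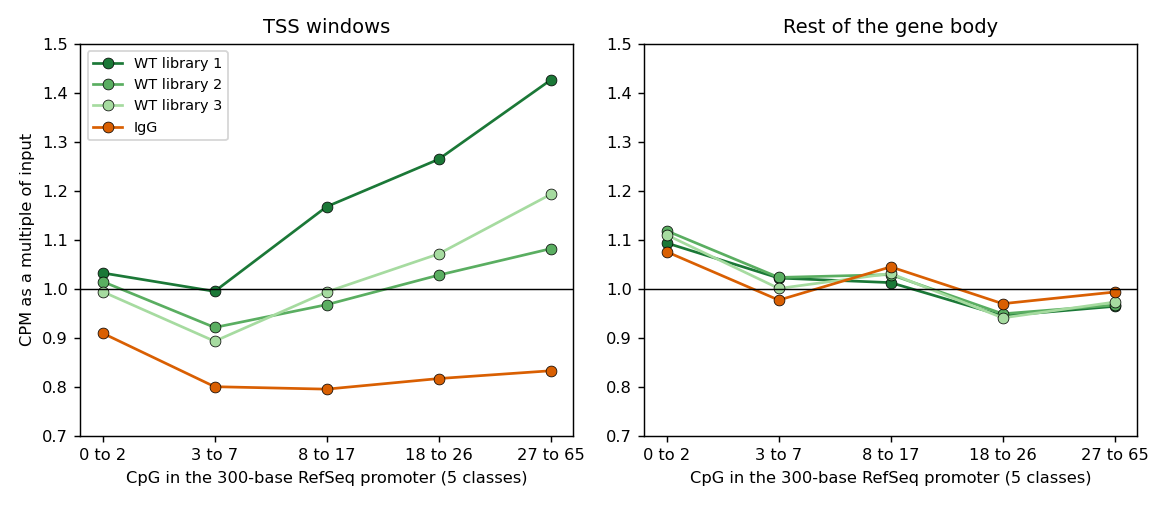
CPM of TSS windows (left) and of the rest of the gene body (right) as multiples of input, by 5 classes of promoter CpG count, for the 3 WT libraries (green) and IgG (orange). At the windows the WT lines reach 1.08 to 1.43 in the richest class while IgG stands at 0.833; along the rest of the body all 4 lines run close together, from 1.08 to 1.12 in the poorest class to 0.964 to 0.994 in the richest.

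The windows clear of both backgrounds fell mostly in that richest class. Of the 61, 35 had a single RefSeq promoter, with a median of 31 CpG against 13 for tested windows with a promoter. They were spread as 1, 0, 7, 3 and 24 from the poorest to the richest class, so that 24 of 35 (68.6%) lay in the richest, which held 20.8% of tested windows. Of the 17 clear below, 7 had such a promoter, 2 of them in the richest class. These are descriptions of sets chosen by their counts.

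Within the richest class, windows with and without known promoter motifs differed over input by less than the spread between libraries, but some differed more over IgG. Both kinds come from the same 3 libraries, so that spread is not the error of the difference between the kinds. GGGCGG, the GC box bound by SP factors (either strand, as for all motifs here), was in 44.9% of the 15637 promoters, in 87.0% of the richest class and in 29 of the 35 clear windows. In the richest class, windows with it stood at log2 0.30 ± 0.21 over input and those without at 0.25 ± 0.18 (SD, n = 3). CCGGAAG, bound by ETS factors, was in 11.6% of promoters and 7 of the 35, with 0.26 and 0.30 in the richest class with and without it. CCAAT was in 39.6% and 15 of the 35 (0.26 and 0.31). CACGTG was in 7.87% and 3 (0.30 and 0.29), TGACGTCA in 2.32% and 1 (0.26 and 0.29), TGANTCA in 7.39% and 1 (0.29 and 0.29), and TATAAA in 13.9% and 0 (0.31 and 0.29). Over IgG, windows of the richest class stood at 0.40 ± 0.19 with CCGGAAG and 0.60 ± 0.21 without, and at 0.37 ± 0.16 with TGANTCA and 0.56 ± 0.20 without (SD, n = 3). IgG itself stood at 0.904 times input with CCGGAAG and 0.815 without, and at 0.945 with TGANTCA and 0.830 without. A match is a description of letters, not a bound site, and GGGCGG itself holds a CpG.

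Gene bodies as a whole showed another picture. Against both controls edgeR called 0 of 25015 bodies higher (0%) and 0 lower (0%), with 470 and 2307 at an unadjusted p under 0.05, and DESeq2 called 7. Against input it called 976 of 25328 higher (3.85%) and 1649 lower (6.51%), a split that TMM scaling turned to 1371 higher and 399 lower. Without WT library 2 the count was 0 and without library 3 it was 5448. Against IgG 32 of 24893 were higher (0.129%) and 36 lower (0.145%), and 1210 were called without library 3. Among the bodies with the smallest p above input, IgG was often at the WT level. Cdh18, a cadherin gene, held 412, 433 and 446 CPM in the WT libraries, 261 in input and 435 in IgG, and Kcnip4, a potassium channel partner, 1137, 1184 and 1217 against 825 and 1226. In both genes IgG lay within or just above the WT range and input stood alone. Chaserr held 22.4, 22.4 and 23.2 CPM against 9.69 in input and 18.04 in IgG (fitted log2 over input 1.23). Its WT values were above IgG, but lay within the exact Poisson interval of the 50 IgG counts, 13.4 to 23.8 CPM. Fcsk was low against both controls, at 13.6, 13.5 and 13.6 CPM against 25.9 and 22.0. The lists above both controls at their windows differed in their bodies, where the median log2 over input of all tested bodies was -0.16. The list median was -0.39 for HBO1 complex and other acetyltransferase genes, -0.24 for histone methylation genes and -0.22 for chromatin remodelers. It was -0.11 for ribosomal protein genes, -0.10 for Wnt, Hedgehog, Notch and BMP genes and -0.02 for ubiquitin genes. Neural stem and chemosensory bodies stood at 0.08 each, and splicing bodies at 0.16.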

How the data were processed

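The authors deposited raw read counts per gene in 2 tables, 1 for TSS windows and 1 for gene bodies, with 27095 Entrez gene IDs; the counts of the 24 files per sample equal their columns. Per the submitters' processing notes, bcl2fastq and featureCounts were used on mm10; the aligner, versions and treatment of reads that align to several places are not given in the sources used here, so values of multi-copy receptor families carry that limit. Gene IDs were paired with symbols and coordinates of RefSeq (GRCm38.p6; 25204 matched, 1891 not), and promoters came from RefSeq. Each library was scaled by its gene body total. Tests used edgeR 4.0.16 in R 4.3.3 (quasi-likelihood, two-sided, Benjamini-Hochberg adjustment over all windows or bodies tested, threshold 0.05, counts averaging at least 10 in the libraries fitted), with DESeq2 1.42.0 as an alternative, and were tested on simulated data. A fit against 1 control has no spread of its own for that control, which is assumed to vary like the WT libraries; fits against both treat input and IgG as 1 group. Windows named had all 3 WT values beyond the 95% exact Poisson bounds of both controls. Those clear above also had a mean WT count of at least 30 and no predicted or clone symbol. Windows with the smallest p (5), and some of the 10 first calls against input, were named as well, under the same symbol rule. Other members were named for their lists after their values were seen. Some single-gene results are not reported here. The alternatives were other scalings, filters, DESeq2, a 99% interval and leaving out each WT library. Members, lists and rules were chosen with earlier results of these data known. CpG classes and sums over autosomal members were added after the data were seen.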

Additional observations from a re-analysis of the deposited data

How the results depend on the processing

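The count of windows called against both controls stayed at 0 except without WT library 3, where 1 window without a matched symbol was called lower (range 0 to 1). Against input the 46 calls became 3 with TMM scaling, 2 without a filter, 29 with autosomal totals and 0 by DESeq2 with either scaling, and ran from 0 to 70 when a WT library was left out. Against IgG the 3 calls became 20 with a mean count of at least 30 and 0 by DESeq2 with either scaling, with 0 to 4 over left-out libraries. Bodies against both controls gave 2 calls by DESeq2 with its own size factors and 7 with gene body totals. Bodies against input gave 1031 and 652 by DESeq2, in place of 2625, and 0 to 5448 over left-out libraries. Bodies against IgG gave 38 to 1210 over left-out libraries. Windows clear above both numbered 26 with TMM scaling, 0 at a mean count of at least 30, 6 with a 99% interval and 77 to 176 over left-out libraries. Windows clear below numbered 28, 3 and 2 in the same settings and 32 to 35 over left-out libraries. With window totals as library sizes, log2 over IgG changed sign for cell cycle (-0.0383), Hox and lineage factor (-0.0927), liver (-0.0221), blood cell (-0.128), microglial (-0.0632), endothelial (-0.0192), mesenchymal (-0.129), synapse (-0.0960), germline (-0.237) and chemosensory genes (-0.128), and log2 over input for chemosensory (-0.0266), microglial (-0.0785) and endothelial genes (-0.0345). Under that setting the CpG classes changed sign for the poorest (-0.0743 over input, -0.0913 over IgG), that with 3 to 7 CpG (-0.0228 over IgG) and that with 8 to 17 (-0.0382 over input). With a WT library left out the last stood at -0.0283 to 0.107 over input, the lower value without library 1. Without WT library 1 microglial and endothelial genes over input and germline genes over IgG turned negative, and imprinted genes turned positive over input without library 2 and over IgG without library 2 or 3. In all, 19 of 292 list values changed sign. Among 12 windows called against input, calls were kept 22 times and lost 68 times over these alternatives. Apart from the settings' own construction, the cause of these changes was not tested. No paired analysis was possible because each control is 1 library. IgG, at a median of 2 counts per window, limits every single window.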

Other observations

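The 5 bodies named as called above IgG were Skint and Nlrp1 genes that were low in the IgG library. Skint4, of a family of skin T cell selection genes, held 85.7, 89.8 and 93.4 CPM in the WT libraries, 58.6 in input and 10.8 in IgG (edgeR adjusted p = 0.00127 against IgG). Skint3 and Skint9, on the same chromosome 4, held 9.74 and 7.58 CPM in IgG against 47.9 and 38.0 in input. The inflammasome genes Nlrp1b and Nlrp1c-ps on chromosome 11 showed the same order, with 20.2 and 4.69 CPM in IgG against 66.4 and 40.2 in input. Skint5, of the same family, did not share that distance, with 338 CPM in input and 291 in IgG. In the 5 genes WT and input both lay well above IgG, and WT above input.

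The opposite order was seen in other bodies called against IgG. Mrgpra3 held 10.6, 9.70 and 11.2 CPM in the WT libraries, 10.7 in input and 58.8 in IgG. Itln1, an intestinal lectin gene, held 15.3, 16.3 and 17.4 CPM against 17.6 in input and 53.4 in IgG. Pou3f2, a neural transcription factor gene, was among the bodies with the smallest p against both controls without passing, at 9.08, 8.76 and 7.61 CPM against 3.31 in input and 4.69 in IgG (edgeR adjusted p = 0.386).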
